A study of Homo sapiens with 15 samples.

Results

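The genes described here are the long intergenic noncoding RNAs that carry a systematic LINC symbol. They were all rows of the expression table named LINC followed by digits, and they were selected on their mean level, which had to be at least 1 CPM (the depth-normalised read count that the authors deposited) over all 15 libraries. This gave 106 of the 133 LINC rows among 17272 rows in all. The libraries are polyadenylated RNA of LNCaP, a human prostate cancer cell line that depends on androgen. In all of them the cells had received 1 nM R1881, a synthetic androgen, for 22 h after androgen starvation. In 10 libraries (labels 51 to 55 and 71 to 75) DMSO was the only addition, and in 5 libraries (labels 81 to 85) 2 µM enzalutamide, an androgen receptor antagonist, was added, and these groups are called DMSO and enzalutamide here. No label series held both treatments, so label series and treatment cannot be told apart, and no source used here says what the label numbers mean.

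LINC symbols are placeholders given to noncoding genes that lie outside of protein-coding genes and have no known function at the time of naming. Most such RNAs are spliced and polyadenylated like messenger RNAs, are present at low levels and are restricted to few cell types. The androgen receptor is a ligand-activated transcription factor that, with forkhead factors, controls noncoding as well as protein-coding genes in prostate cells, and enzalutamide prevents its activation.

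The promoters of the 2 LINC genes that were lowest and the 2 that were highest with enzalutamide are shown because their log2 fold changes, on the log2(CPM + 0.5) scale, were the largest of those passing the test in each direction. By the ratio of mean CPM, which has no pseudocount, LINC00511 (5.18), LINC01021 (4.68) and LINC01133 (4.002) stood above LINC01024 (3.79). They are RefSeq sequences of GRCh38.p14, from 250 bases before to 50 bases after the gene start, read in the direction of transcription. LINC00844 lies on the plus strand at chr10:58999268-58999567, LINC01297 on the minus strand at chr14:19384239-19384538, LINC01411 on the plus strand at chr5:174336104-174336403 and LINC01024, now named MALINC1, on the minus strand at chr5:140107963-140108262. Capitals mark AGAACA or its complement TGTTCT, the 6-base element of the androgen receptor, of which there was a single match, at position 192 of LINC00844.
LINC00844: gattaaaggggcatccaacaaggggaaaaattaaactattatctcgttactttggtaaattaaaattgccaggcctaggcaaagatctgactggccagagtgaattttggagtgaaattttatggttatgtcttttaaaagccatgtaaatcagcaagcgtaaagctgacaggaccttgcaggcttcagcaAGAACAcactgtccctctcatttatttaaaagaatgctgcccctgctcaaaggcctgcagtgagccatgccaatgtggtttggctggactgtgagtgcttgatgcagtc
LINC01297: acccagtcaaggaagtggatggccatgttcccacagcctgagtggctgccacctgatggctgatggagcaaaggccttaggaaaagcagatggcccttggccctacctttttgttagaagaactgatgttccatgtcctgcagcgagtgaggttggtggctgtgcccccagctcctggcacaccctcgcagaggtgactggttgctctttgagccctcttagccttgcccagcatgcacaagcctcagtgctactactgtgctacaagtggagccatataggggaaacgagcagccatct
LINC01411: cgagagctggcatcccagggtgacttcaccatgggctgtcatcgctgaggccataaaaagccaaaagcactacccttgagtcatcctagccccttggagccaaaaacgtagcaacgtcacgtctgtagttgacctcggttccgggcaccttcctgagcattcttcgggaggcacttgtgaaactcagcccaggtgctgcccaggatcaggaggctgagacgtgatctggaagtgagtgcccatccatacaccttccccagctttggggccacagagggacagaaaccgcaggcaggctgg
LINC01024 (MALINC1): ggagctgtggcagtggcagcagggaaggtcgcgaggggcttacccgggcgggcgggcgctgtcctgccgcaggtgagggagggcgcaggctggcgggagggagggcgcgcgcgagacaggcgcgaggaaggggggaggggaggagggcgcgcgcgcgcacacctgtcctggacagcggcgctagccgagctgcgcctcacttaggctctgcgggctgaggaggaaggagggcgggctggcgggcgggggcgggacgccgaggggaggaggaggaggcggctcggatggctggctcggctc

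The MALINC1 promoter had a GC content of 76.3% and 34 CG dinucleotides, whereas that of LINC00844 had 43.0% and 2. Those of the lower LINC01297 and the higher LINC01411 were close in GC content, at 55.7% and 57.3%, with 3 and 10 CG dinucleotides. Promoter sequence was at hand for 82 of the 106 genes. AGAACA was found on either strand in 13 of them, and in 14.9% of all 27305 promoters in the table. By direction, it was in 3 of 9 genes that were lower with enzalutamide, 6 of 42 that were higher and 4 of 31 that did not pass the test. The inverted repeat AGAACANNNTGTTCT was in none of the 82 and in 1 promoter of the table, and the forkhead core TGTTTAC was in 5 of the 82 and in 3.41% of all promoters. A match in this window is not evidence of a bound site.

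Between 15830745 and 25416052 reads per library were recovered from the deposited values. The label of the treatment was checked with KLK2, TMPRSS2 and FKBP5, known androgen targets, whose mean CPM was 463, 850 and 1502 with DMSO and 15.2, 71.5 and 46.8 with enzalutamide. All 9 luminal prostate markers looked up had a row, and their summed CPM was 7906 to 9192 with DMSO and 3673 to 3798 with enzalutamide. The keratins KRT8 and KRT18 had log2 fold changes of -2.18 and -2.05. Of 12 markers of immune, endothelial, stromal, basal and neuroendocrine cells, 8 had no row, including PTPRC, PECAM1 and KRT5. The summed CPM of the other 4 was 10.8 to 16.0 with DMSO and 24.7 to 30.1 with enzalutamide, which COL3A1 mostly accounted for (1.84 and 11.96 CPM), and the part of either marker shift in the results below was not tested.

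The LINC RNAs were expressed at low levels. Their median mean level was 3.73 CPM, 28 of the 106 were below 2 CPM, 30 were at or above 10 CPM and 3 at or above 100 CPM. Genes below 2 CPM had 6 to 95 reads per library and a median coefficient of variation of 27.5% over the DMSO libraries, whereas genes of at least 10 CPM had 114 to 13002 reads and 6.62%. Just inside the threshold were LINC01354 (1.01 CPM), LINC00893 (1.01 CPM) and LINC01410 (1.02 CPM), and just outside were LINC01004 (0.999 CPM), LINC00240 (0.948 CPM) and LINC00265 (0.943 CPM). The mean was at least 1 CPM in both treatments for 93 genes, only with DMSO for 5 and only with enzalutamide for 8, so these 13 passed the threshold through 1 treatment.

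A few genes made up most of the signal. LINC00657, known as NORAD, a noncoding RNA activated by DNA damage that binds PUMILIO proteins, contributed 27.3% of the summed level and the top 5 genes 53.7%. NORAD ranged from 442 to 544 CPM with DMSO (median 509) and was 449, 474, 500, 510 and 533 CPM with enzalutamide. The treatments overlapped and the log2 fold change was -0.03 ± 0.05 (SE, adjusted p = 0.561, limma). The sign of this small value turned with some scalings. Next were LINC01296, LINC00665, LINC01278 and LINC00998, with means of 222, 105, 91.6 and 66.4 CPM. Per kilobase of exon, the mean level was 92.7 CPM per kilobase for NORAD, 45.9 for LINC01296, 36.0 for LINC00998 and 29.5 for LINC00493, and the median over the 104 genes with an annotated length was 1.02.

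More LINC RNAs were higher than lower with enzalutamide. By limma on log2(CPM + 0.5), 58 of the 106 genes (54.7%) were higher and 13 (12.3%) were lower at an adjusted p under 0.05, and 35 did not pass. Of all 17046 rows tested, 29.8% were higher and 32.7% lower. With library totals set to 1000000 instead of the deposited scaling, 70 LINC genes were higher and 8 lower. Higher calls were then 89.7% of the LINC calls and 60.8% of all calls, where they had been 81.7% and 47.7%. The median log2 fold change was 0.25 (quartiles 0.03 and 0.64) over the LINC genes and -0.01 over all rows. At least 2-fold changes were found for 13 higher and 2 lower LINC genes (12.3% and 1.89%), beside 3.26% and 4.19% of all rows. All 5 enzalutamide libraries lay above all 10 DMSO libraries for 40 genes and below them for 5, where the background was 17.1% and 20.1% of rows. With the pseudocount, folds of low genes come out too small. The authors call the libraries biological replicates. Neither the methods nor the labels say whether they came from separate cultures, so the spread may be partly technical.

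**Figure D1:**
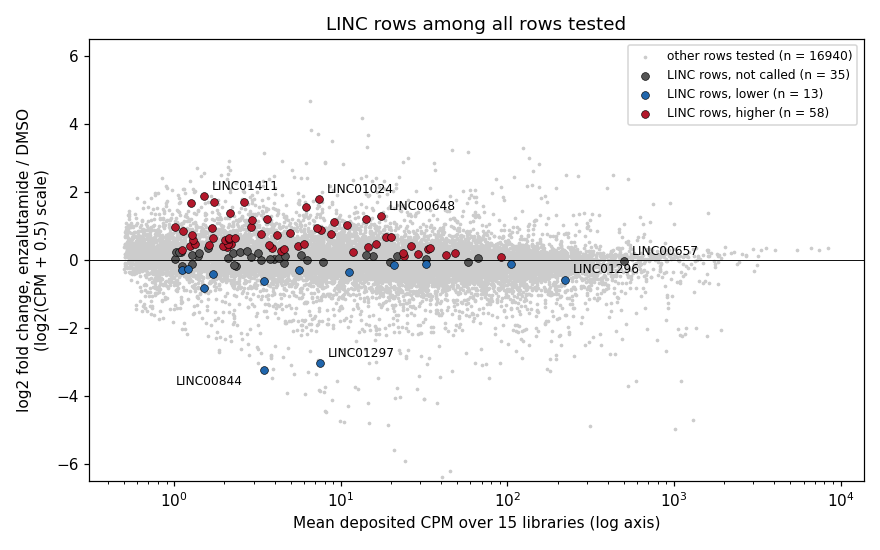
Mean deposited CPM over 15 libraries (x, log axis) against the log2 fold change of enzalutamide over DMSO (y, log2(CPM + 0.5) scale). Grey points are other rows tested and large points LINC rows, 58 of them higher (red), 13 lower (blue) and 35 not passing the test (dark grey); LINC00844 and LINC01297 lie apart at about -3.

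The excess of higher over lower genes was found at both low and high levels. Of 76 LINC genes with a mean from 1 to 10 CPM, 53.9% were higher and 10.5% lower, beside 33.4% and 21.5% of all 5346 rows in this range. In the same range, a class looked up after the values were seen, the 2614 protein-coding rows, had 42.5% higher and 20.5% lower. Of the 30 LINC genes above 10 CPM, 56.7% were higher and 16.7% lower, beside 27.8% and 41.2% of all rows at that level. Rows named as antisense RNAs had a similar split (49.2% higher and 15.8% lower of 260), and the small nucleolar RNA host genes had 16.7% and 33.3% of 18. These shares are descriptions and were not tested against each other. Among the 93 LINC genes with a mean of at least 1 CPM in both treatments, 52 were higher and 9 lower.

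**Figure D2:**
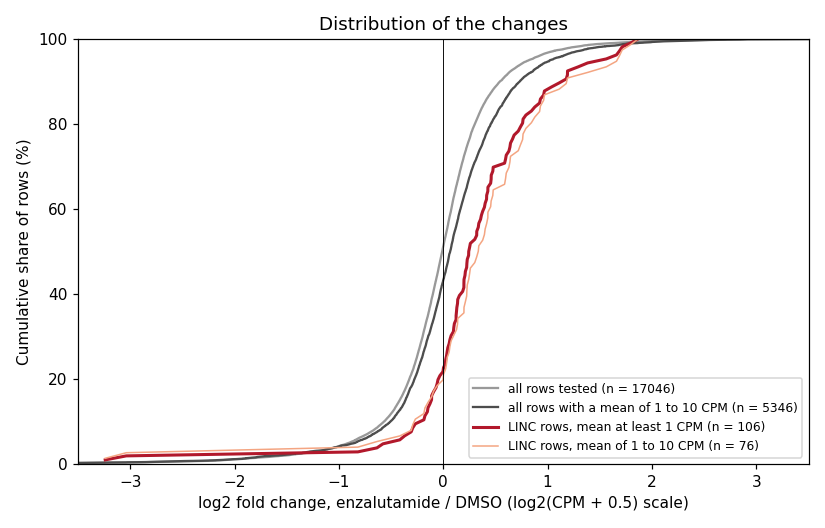
Cumulative share of rows (y, %) against log2 fold change of enzalutamide over DMSO (x, log2(CPM + 0.5) scale) for the LINC rows, those with a mean of 1 to 10 CPM, all rows in that range and all rows tested. The LINC lines lie to the right of the lines for all rows over most of the range, with medians of 0.25 against -0.01 for all levels.

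The summed level of the LINC RNAs was 1716 to 1867 CPM with DMSO (mean 1802 ± 47.4, SD, n = 10) and 1823 to 1951 CPM with enzalutamide (mean 1900 ± 48.1, SD, n = 5), so the treatments overlapped. With library totals set to 1000000 it was 1623 to 1741 and 1850 to 1945, with no overlap. Without NORAD, on the deposited scale, it was 1274 to 1341 CPM and 1374 to 1420 CPM, with no overlap. The difference is no test of single genes, because the sum is dominated by the few abundant ones.

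LINC00844, which is known to be induced by androgen in prostate cells, had the largest decrease. This gene of 3 exons on chromosome 10 was at 4.50 to 5.87 CPM with DMSO (median 5.20). With enzalutamide it was at 0.0784, 0.0910, 0.0930, 0.0931 and 0.135 CPM, which corresponds to 2 or 3 reads per library. The level was therefore low in every enzalutamide library and the groups were far apart. The log2 fold change was -3.24 ± 0.08 (SE, adjusted p = 8.52e-19, limma). In reads, 11 remained in 5 libraries beside 1037 in 10, or 1.90% of the DMSO level by total reads (95% exact interval 0.947 to 3.42%, counting error only).

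LINC01297, a gene of 4 exons on chromosome 14 in a region close to the POTE gene family, fell in a like manner. It was at 9.22 to 13.5 CPM with DMSO (median 10.5) and at 0.494, 0.791, 0.864, 1.12 and 1.18 CPM with enzalutamide. No enzalutamide library came near the lowest DMSO library. The log2 fold change was -3.04 ± 0.11 (SE, adjusted p = 1.46e-15, limma), and 8.33% of the DMSO level remained by total reads (95% exact interval 6.76 to 10.2%). For both genes, as for every gene below without overlap, the two-sided exact permutation p was 0.000333, the smallest that 3003 regroupings of the libraries allow. The mean with enzalutamide was under 1 CPM for LINC00844 (0.098) and LINC01297 (0.888), and for LINC01572 (0.832) and LINC00471 (0.891) below. They were therefore included only through their DMSO libraries.

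Another 5 lower genes passed the test in each of the 28 alternative fits, though none was lower by 2-fold on the log2(CPM + 0.5) scale. LINC01572 (chr16:72236281-72665014) was at 1.19 to 2.23 CPM with DMSO (median 1.90) and 0.629, 0.667, 0.745, 0.864 and 1.26 CPM with enzalutamide. Only the highest enzalutamide library reached into the DMSO range, and the log2 fold change was -0.82 ± 0.12 (SE, adjusted p = 4.29e-06). LINC01296, which is now the pseudogene DUXAP9, was at 225 to 267 CPM with DMSO (median 252) and 157, 162, 169, 173 and 175 CPM with enzalutamide. The difference of -0.58 ± 0.04 (SE, adjusted p = 2.98e-11) was without overlap, but DUXAP9 has near-identical copies, so the reads may be divided among them and its level is uncertain.

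The remaining 3 of these were smaller in effect. LINC01194 had a DMSO range of 1.676 to 2.64 CPM (median 1.82) and was at 1.06, 1.09, 1.30, 1.39 and 1.675 CPM with enzalutamide, a log2 fold change of -0.42. The highest enzalutamide library, 83, was under the lowest DMSO library by less than 1 read, which is 0.0465 CPM in library 83. LINC00960 was at 10.7 to 13.3 CPM and then 8.38, 8.90, 9.26, 9.57 and 10.4 CPM, a log2 fold change of -0.37, without overlap. LINC01341 was at 5.45 to 6.84 CPM and then 3.96, 4.04, 4.98, 5.32 and 5.96 CPM, a log2 fold change of -0.29 with overlap. Their adjusted p-values were 0.00155, 3.65e-05 and 0.00498.

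The other 6 lower calls lost the threshold in at least 1 alternative fit. LINC00116, now MTLN, encodes mitoregulin, a peptide of the inner mitochondrial membrane. It was scattered with DMSO, from 1.37 to 8.15 CPM (median 3.76), and was at 1.58, 1.75, 2.63, 2.74 and 2.78 CPM with enzalutamide, for a log2 fold change of -0.63 ± 0.23 (SE, adjusted p = 0.0210). Libraries 52 and 73 were the extremes, and against libraries 51 to 55 alone the adjusted p was 0.130. LINC00471, LINC00921, LINC00969 and LINC00493 had log2 fold changes of -0.31, -0.27, -0.15 and -0.13 and adjusted p-values of 0.0392 to 0.0481. The lower call of LINC00665, at 101 to 118 CPM with DMSO and 95.03 to 101.8 CPM with enzalutamide, rested on a log2 fold change of -0.11.

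The largest increase was that of LINC01411 (chr5:174336295-174532457). It was low but detected in every library with DMSO, at 0.330 to 0.882 CPM (median 0.557, 6 to 20 reads per library), and reached 3.10, 3.14, 3.21, 3.40 and 4.09 CPM with enzalutamide. The log2 fold change was 1.87 ± 0.13 (SE, adjusted p = 1.02e-10). LINC01024, now MALINC1 for mitosis-associated long intergenic noncoding RNA, rose from 3.02 to 4.69 CPM (median 3.76) to 13.2, 13.3, 14.8, 15.1 and 16.3 CPM. Its log2 fold change of 1.80 ± 0.09 (SE) had an adjusted p of 1.46e-13. Both were far apart between treatments, with every enzalutamide library above 3 CPM for LINC01411 and above 13 CPM for MALINC1.

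LINC01021, now PURPL, an RNA known to be induced by p53, was at 0.406 to 1.06 CPM with DMSO (median 0.837) and 3.17, 3.41, 3.58, 3.65 and 4.27 CPM with enzalutamide. LINC01133, which is known to bind the splicing factor SRSF6, was at 0.692 to 1.72 CPM (median 1.45) and then 4.65, 4.82, 5.37, 5.49 and 6.06 CPM. LINC00511, described as a tumour-promoting RNA in several cancers, was at 0.315 to 0.968 CPM (median 0.5004) and then 2.20, 2.42, 2.73, 3.12 and 3.25 CPM. The log2 fold changes of these genes were 1.71, 1.69 and 1.66, each with an adjusted p of at most 5.55e-10 and no overlap. LINC01411, PURPL and LINC00511 were under 1 CPM with DMSO and so were included only through their enzalutamide libraries.

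Of the next 7 genes, LINC00648 was the most abundant. On chromosome 14, it was at 9.19 to 13.2 CPM with DMSO (median 11.7) and 27.4, 28.1, 28.3, 29.3 and 32.0 CPM with enzalutamide, a log2 fold change of 1.29 ± 0.08 (SE, adjusted p = 3.52e-12). LINC01138, known to bind the arginine methyltransferase PRMT5, was at 2.82 to 4.10 CPM (median 3.60) and then 10.2, 10.7, 11.3, 12.3 and 12.5 CPM. It lies at chr1:148290889-148519604 and its exons overlap those of other genes on both strands, so its reads are uncertain. LINC00940 was at 0.972 to 1.64 CPM and then 3.41, 3.73, 3.86, 4.27 and 4.74 CPM. Their log2 fold changes were 1.56 and 1.38.

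The remaining 4 of the 12 highest rose by 1.11 to 1.19 on the log2 scale. LINC00680, whose exons overlap another gene on its strand and whose reads are therefore uncertain, was at 8.62 to 11.3 CPM and then 21.3, 22.8, 22.9, 23.4 and 23.8 CPM. LINC00936, now ATP2B1-AS1, was at 1.55 to 3.71 CPM and then 5.48, 5.54, 5.76, 6.37 and 6.91 CPM. LINC00623 was at 1.37 to 2.70 CPM and then 4.70, 4.72, 4.96, 5.10 and 5.31 CPM. LINC01137, now LITATS1, was at 5.60 to 7.25 CPM and then 12.01, 13.7, 14.0, 15.8 and 16.4 CPM. None of the 12 highest genes had overlapping treatments.

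**Figure D3:**
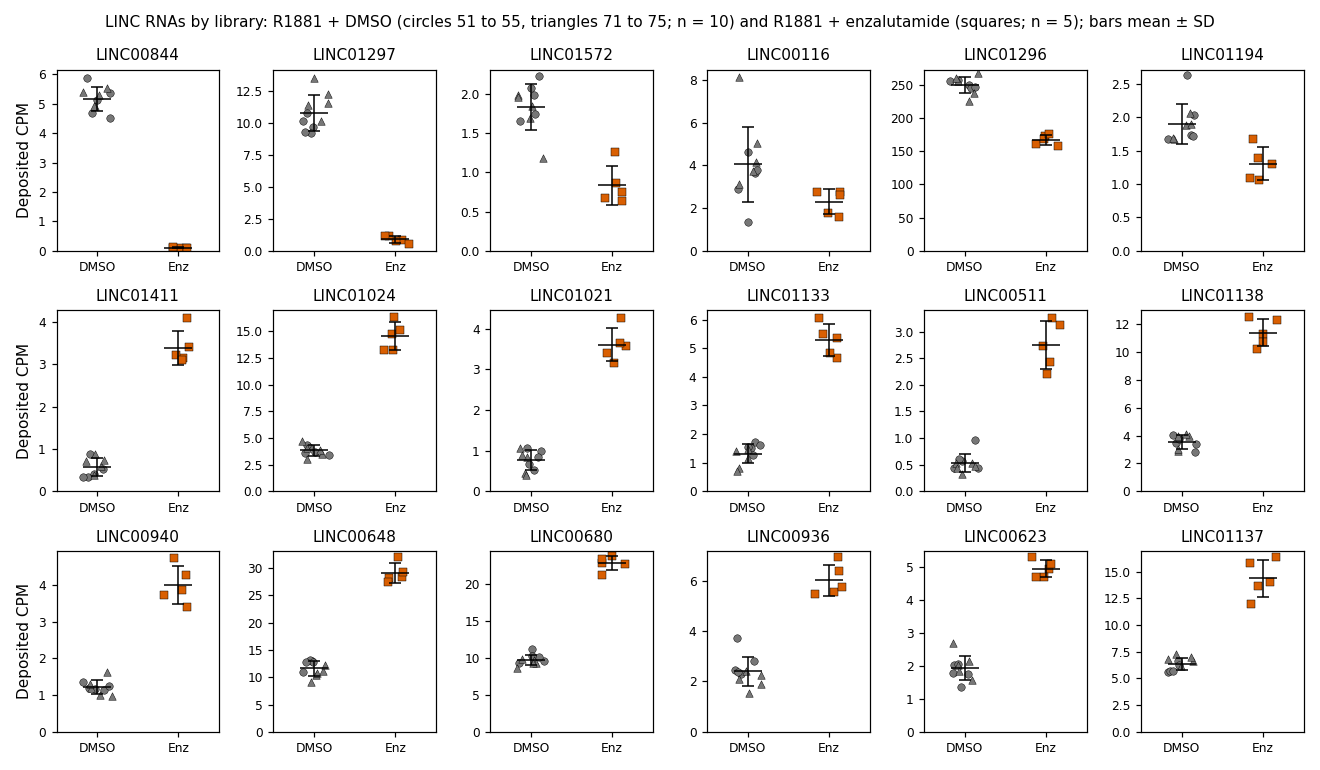
Deposited CPM (y, from 0) in each library for the 6 lowest and 12 highest LINC genes, with the 10 DMSO libraries (grey; circles 51 to 55, triangles 71 to 75) beside the 5 enzalutamide libraries (orange squares). Bars are mean ± SD; apart from LINC01572 and LINC00116, which overlap, the groups are separated or nearly so.

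Of the 58 higher genes, 26 changed by less than 1.5-fold and 13 by at least 2-fold. Against each DMSO series alone, 71 of 71 kept the direction, and 51 of the 58 higher and 7 of the 13 lower genes passed the test against both series. Both comparisons reuse the enzalutamide and DMSO libraries that gave the calls, so they are no independent repeat. The ranges of the 2 DMSO series overlapped for 68 of these 71 genes and not for LINC00641, LINC01355 and LINC00205, which are named for this after the values were seen. LINC01355 had a mean of 1.38 CPM in libraries 51 to 55 and 2.34 CPM in libraries 71 to 75, and its log2 fold change was 0.67 against the first (adjusted p = 4.81e-05) and 0.08 against the second (adjusted p = 0.542). LINC00641 had means of 12.7 and 9.57 CPM, with log2 fold changes of 0.05 (adjusted p = 0.591) and 0.44 (adjusted p = 0.000108).

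**Figure D4:**
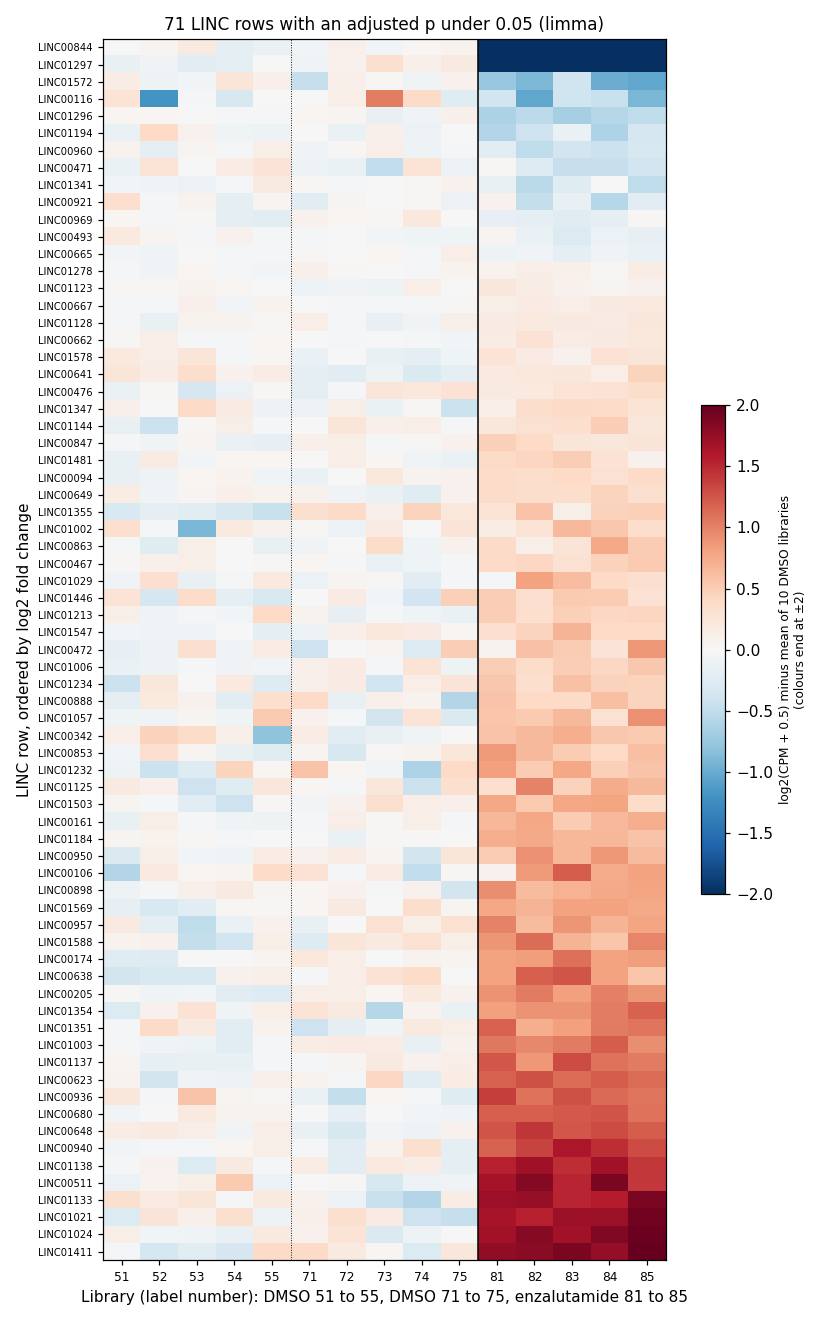
log2(CPM + 0.5) minus the mean of the 10 DMSO libraries (colour, ending at ±2) for the 71 LINC genes with an adjusted p under 0.05, ordered by fold change (y), in each library by label number (x). The 2 lowest rows fall below the colour scale in all 5 enzalutamide libraries and the highest rows are red in all 5.

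A list of 25 LINC genes, written by hand mainly from cancer studies, was looked up whatever their change. Of all 106 LINC genes 54.7% were higher and 12.3% lower, and of all rows tested 29.8% and 32.7%. The list has 12 members among the 106, of which 8 were higher and 2 lower, LINC00844 and LINC00665. The higher ones with smaller changes were LINC00205 (log2 fold change 0.93), LINC00174 (0.88), LINC01503 (0.64), LINC00467 (0.41), LINC00641 (0.24) and LINC00662 (0.20). LINC00963, which has been linked to androgen-independent growth of prostate cancer, was at 54.9 to 62.8 CPM with DMSO and 53.4, 55.4, 55.6, 56.2 and 58.9 CPM with enzalutamide. Its log2 fold change was -0.07 (adjusted p = 0.109), and that of LINC00920 was 0.06 (adjusted p = 0.775). LINC00675 had a row below the threshold and the other 12 were not analysed here, having no row.

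Annotation has moved on since these symbols were given. Of the 106 genes, 27 have another RefSeq symbol today and 7 are now protein-coding, namely MTLN, SMIM26, NBDY, SMIM30, BRD3OS, C2orf92 and TMEM8B. MTLN and SMIM26 were lower, BRD3OS, C2orf92 and TMEM8B higher, and NBDY and SMIM30 did not pass. LINC00998, the gene of SMIM30, was at 59.6 to 70.4 CPM with DMSO and 62.8, 63.4, 69.7, 71.1 and 71.9 CPM with enzalutamide. Of the 104 genes placed in GENCODE, 60 had an exon overlapping another gene, 25 on the same strand and 49 on the opposite strand. As no source states whether strand was used in counting, reads of such pairs cannot be told apart. Of the 46 genes without such an overlap or without a GENCODE entry, 24 were higher and 5 lower, with a median log2 fold change of 0.29. Of all rows tested, 29.8% were higher and 32.7% lower, with a median of -0.01. The LINC genes had a median of 3 exons, against 8 over all rows, and median GC contents were 48.1% and 47.8%.

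Nearby protein-coding genes were compared as well. For 57 LINC genes the nearest annotated protein-coding gene lay within 50000 bases and was itself tested. LINC genes whose nearest one had no row were left out. Of these 57 pairs, 37 (64.9%) changed with the same sign, beside 57.4% of 7842 neighbouring pairs of protein-coding genes. Across the 57 pairs Pearson's r was 0.26 and Spearman's rho 0.24, beside 0.29 and 0.23 across the protein-coding pairs. The pairs share their libraries and sometimes their reads, and are a description. In 30 pairs (52.6%) both genes passed the test, as in 46.5% of the protein-coding pairs. Both were higher in 22 of the 30 (73.3%), beside 27.2% of such protein-coding pairs, where 54.7% of LINC genes and 30.7% of protein-coding rows were higher to begin with. In 5 the LINC gene was higher and its neighbour lower, and in 3 the LINC gene was lower and its neighbour higher.

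The neighbours of the most changed genes differed among themselves. MALINC1 overlaps PURA, a nucleic acid-binding protein, on the opposite strand, and PURA was at 71.6 CPM with DMSO and 133 CPM with enzalutamide (log2 fold change 0.89). ATP2B1-AS1 overlaps ATP2B1, a plasma membrane calcium pump, which rose by 1.07. In both pairs the gene bounds overlap on opposite strands and strand use in counting is not stated, so some reads may be shared. DCP1B, a decapping factor beside LINC00940, rose by 0.42, and SLC39A11, a zinc transporter beside LINC00511, by 0.16. POTEG, 17899 bases from LINC01297, was at 1.79 and 1.60 CPM (log2 fold change -0.12, adjusted p = 0.427). SCCPDH rose by 0.46 beside the lower LINC01341. ZNF717 rose by 0.32 while LINC00960 was lower, but their exons overlap on opposite strands, so reads of this pair are uncertain.

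In 8 pairs the starts were within 2000 bases and the genes were divergent, a head-to-head arrangement. Of these LINC genes 4 passed the test, all higher, and 3 of the neighbours did. In either direction, 67.0% of all LINC genes and 62.5% of all rows tested passed it. LINC01351 and BRINP3 both passed (0.97 and 0.58), whereas LINC00205 rose by 0.93 beside POFUT2 at 0.07 (adjusted p = 0.347). These pairs were named for their position after the values had been seen.

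**Figure D5:**
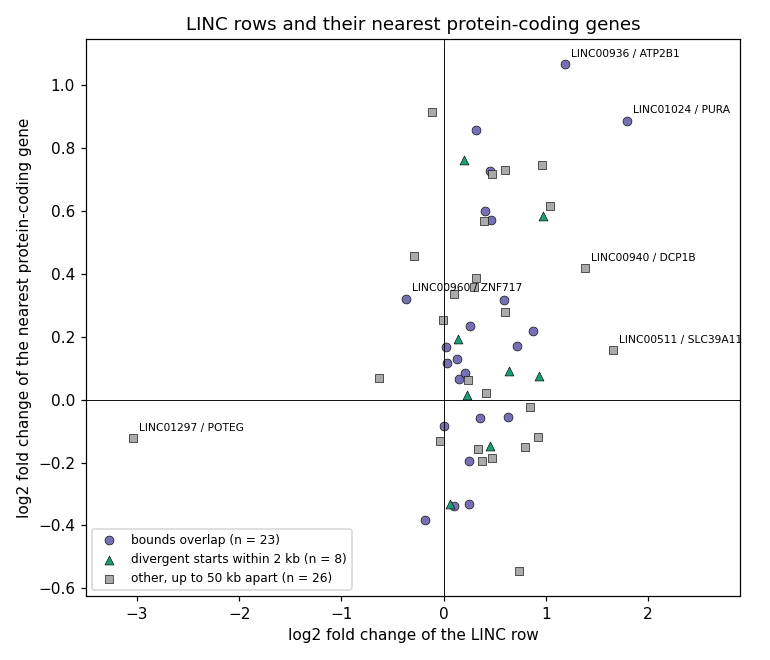
log2 fold change of each LINC gene (x) against that of its nearest annotated protein-coding gene (y), where this lay within 50 kb and was tested. Pairs are those with overlapping bounds (circles, 23), divergent starts within 2 kb (triangles, 8) and other pairs (squares, 26). LINC00936 with ATP2B1 and LINC01024 with PURA lie at the upper right, and LINC01297 lies far to the left with its neighbour near 0.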

How the data were processed

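The series holds 15 libraries of LNCaP messenger RNA. The submitters' processing notes name bcl2fastq 2.17, STAR and featureCounts of Subread. The authors deposited a signal per gene, which the methods call CPM. For annotation, strand use, row filter and scaling, details were not given in the sources used here. All values (100%) were whole reads within 0.01, and 0 columns lacked a sample. The methods give the replicate numbers the other way round, and the labels were used. Deposited values were tested with limma 3.58.1 in R 4.3.3 (trend, log2(CPM + 0.5), mean of at least 0.5, a single treatment term, p adjusted by Benjamini-Hochberg at 0.05), after a check on simulated reads. For single genes, all 3003 ways to assign the libraries were enumerated in an exact permutation test (two-sided), and correlations and exact intervals were computed with SciPy 1.17.1. edgeR 4.0.16 and DESeq2 1.42.0 on recovered reads, other scalings, filters, pseudocounts, each DMSO series alone and each library left out were alternatives. Symbols were matched to RefSeq through synonyms and to GENCODE v44 on GRCh38. Named genes are the 12 lowest and 12 highest that passed the test, the 5 most abundant, a list of 25, their neighbours and those at the threshold. Some genes looked up are not reported here. The genes, lists and tests were chosen with earlier results of these data known.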

Additional observations from a re-analysis of the deposited data

Results flagged for a closer look

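Of 76 groups of libraries examined, 8 held a library whose distance to the nearest other exceeded Dixon's 95% limit, where chance gives about 1 in 20 groups (3.8). With enzalutamide, library 85 was highest for LINC00844 (0.135 CPM, 3 reads, others 0.0784 to 0.0931) and LINC00969 (22.1 CPM, others 18.3 to 19.3). Library 83 was highest for LINC00174 (13.02 CPM, others 10.5 to 10.8) and had the lowest summed level without NORAD (1374 CPM, others 1407 to 1420). With DMSO, library 52 was highest for LINC01194 (2.64 CPM, others 1.68 to 2.07) and LINC00662 (24.7 CPM, others 21.7 to 23.2), library 51 for LINC00921 (1.76 CPM, others 1.06 to 1.38) and library 54 for LINC00511 (0.968 CPM, others 0.315 to 0.599).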

How the results depend on the processing

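Under 28 alternative fits, the 71 calls kept their direction, and 49 of 58 higher and 7 of 13 lower genes passed in all of these. Lower genes numbered 8 by edgeR, 8 with totals set to 1000000, 5 without overlapping genes and 2 at 2-fold, where higher genes numbered 24 and 13 in the last pair. Without single libraries there were 8 (without library 82) to 12 lower and 55 to 61 higher. The median was 0.334 by DESeq2, 0.362 by edgeR, 0.331 with totals set to 1000000, 0.301 and 0.223 with pseudocounts 0.1 and 1, 0.275 against libraries 51 to 55, 0.284 without the GC trend, 0.302 at a mean of at least 0.5, 0.292 without overlapping genes and 0.240 to 0.286 without single libraries. The neighbour rho was 0.192 against libraries 51 to 55 and 0.212 to 0.264 without single libraries. The summed ratio of 1.05 became 1.13 with totals set to 1000000 and 1.08 without NORAD. Leaving out the genes that are now protein-coding (11 lower, 55 higher) or that were renamed (9 lower, 44 higher), both chosen after seeing the data, gave medians of 0.252 and 0.244. The cause was not tested.

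Equal numbers did not pair the libraries (correlations of deviations -0.0678 to 0.0739). With the replicate block, 10 genes were lower and 56 higher (median 0.289). Signs turned for NORAD, LINC00657 (0.0204 against 71 to 75, 0.0117 by edgeR, 0.0613 with totals set to 1000000, 0.00536 without the GC trend, -0.0608 to 0.000813 without single libraries), LINC00963 (0.0229 with those totals) and LINC00920 (-0.0888 against 51 to 55, -0.0795 to 0.190 without single libraries), none of them called. Calls were lost without 1 library in 12 cases for LINC00969, 10 for LINC00921, 9 for LINC00493, 8 for LINC00471, 7 for LINC00641 and 2 each, libraries 82 and 85, for MTLN and LINC01278. Over all calls, named or not, 51 of the 58 higher and 8 of the 13 lower genes kept the call without each library.

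Low levels limit these data, since genes under 2 CPM rest on 6 to 95 reads per library. Only 5 libraries carry enzalutamide.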
